A study of Mus musculus with 16 samples.

Results

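The comparison set sorted myoblasts against the same kind of cell after differentiation: 3 libraries of GFP+ myoblasts and 3 libraries of differentiated myoblasts, 6 of the 16 libraries of the series. All 6 came from primary skeletal muscle myoblasts of Pax7-nGFP mice, in which a nuclear green fluorescent protein reports Pax7, and their parental lines came from 16-week-old males. The GFP+ myoblasts had grown in a medium with 10% horse serum, 20% FBS and 10 ng/ml basic FGF, were at passage 5 to 6, and were sorted by flow cytometry, 300000 to 500000 cells at a time, straight into lysis buffer. The differentiated myoblasts had spent 3 days in 2% horse serum, were at passage 4 to 5, and were not sorted, so they hold every cell of the dish. Both groups were extracted with kits of the same maker, the sorted cells with its micro kit and the differentiated cells with its mini kit, and all libraries were poly(A)-selected, stranded and read from 1 end. Sorting, kit, medium and passage differ between the groups together with differentiation, and their parts in any difference cannot be told apart. Unsorted bulk myoblasts at passage 3 in the growth medium, 3 libraries, are used below as a growing culture without a sort. The labels call the 3 samples of each group biological replicates and do not say whether they came from separate animals. Same-numbered libraries of both groups share a prefix in their names, which may mark a shared parental line, though the labels do not say so.

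Satellite cells, the stem cells of skeletal muscle, are marked by the transcription factor Pax7. Once activated they divide as myoblasts under Myf5 and Myod1, and when growth factors are withdrawn they leave the cell cycle, switch on Myog and Mef2 factors, fuse into myotubes and build sarcomeres. Inhibitor of DNA binding (Id) proteins, Notch signalling and fibroblast growth factors are known to hold myoblasts in the dividing state. Differentiation also changes which exons are joined in many muscle transcripts.

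Library depth was 28350299, 23098316 and 19300307 estimated counts in the GFP+ myoblasts and 23298346, 20075100 and 19628139 in the differentiated myoblasts. Log2 fold changes below are GFP+ over differentiated myoblasts with their standard error, 3 libraries against 3, and adjusted p-values come from edgeR's quasi-likelihood test with Benjamini-Hochberg adjustment over 15533 genes. Of these genes 10732 passed an adjusted p of 0.05, or 69.1%: 5341 were higher in GFP+ myoblasts (34.4%) and 5391 lower (34.7%). At a fold of at least 2 the counts were 3268 higher (21.0%) and 3497 lower (22.5%), and at a fold of at least 64 they were 97 higher and 390 lower. The median log2 fold change of all tested genes was -0.004. Noncoding genes were lower more often than higher, 266 higher (15.4%) and 696 lower (40.4%) of 1724, against 5071 (36.8%) and 4692 (34.0%) of 13798 protein-coding genes. GFP+ replicate 3 stood apart from the other GFP+ libraries, with a chi-square per degree of freedom of 61.0 and 51.5 against them, where the other GFP+ pair gave 10.2 and the differentiated pairs 13.3 to 16.8. Where a list's counts differ without that library, they are given beside it as counts without GFP+ replicate 3. For some lists the genes with that library highest or lowest among the GFP+ libraries are counted. The matching share over all tested genes is not given, so these counts are not read as traits of a list.

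The markers of the labelled cells were present in both groups. Pax7 had 867, 824 and 1000 CPM (counts scaled to a common library size, with TMM normalization) in GFP+ myoblasts and 25.3, 64.7 and 45.7 CPM in differentiated myoblasts. The sort was on the Pax7 reporter, so this difference (4.31 ± 0.38) describes the gate and is not read as a result. Myod1, the factor that commits cells to the muscle lineage, had 890, 953 and 895 CPM in GFP+ myoblasts and 353, 330 and 297 CPM in differentiated myoblasts, so it was higher in the sorted cells (1.48 ± 0.27, adjusted p = 0.000274) and still present in the differentiated ones. Cdh15, a muscle cadherin, and Itga7, a laminin receptor subunit, are also myoblast markers, yet both were lower in GFP+ myoblasts (-0.97 and -1.42). In bulk RNA, fewer cells of a type and less RNA per cell cannot be told apart.

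The regulators of myogenesis split by stage. Myf5, which acts beside Myod1 in dividing myoblasts, had 60.9, 56.9 and 85.8 CPM in GFP+ myoblasts and 18.4, 14.3 and 14 CPM in differentiated myoblasts (2.12 ± 0.28, adjusted p = 1.47e-05). Myog, the factor that starts terminal differentiation, had 148, 103 and 32.5 CPM in GFP+ myoblasts, lowest in replicate 3, and 973, 982 and 1028 CPM in differentiated myoblasts (-3.40 ± 0.47, adjusted p = 2.15e-05). Mef2c, a partner of the MyoD family at muscle promoters, had 11, 7.54 and 10.9 CPM in GFP+ myoblasts and 2062, 1797 and 1892 CPM in differentiated myoblasts (-7.61 ± 0.35). The groups did not overlap for any of these, as for 75.2% of all tested genes. Myf6, the MyoD family member of mature fibres (-5.55 ± 0.49), and Tead4, a Hippo pathway factor (-3.79 ± 0.29), fell in GFP+ myoblasts, while Tcf3, which encodes the E protein partners of the MyoD family, rose (2.27 ± 0.10). Over 27 tested regulators 11 were higher and 14 lower, with a median of -0.64; of all tested genes 34.4% were higher and 34.7% lower.

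**Figure D1:**
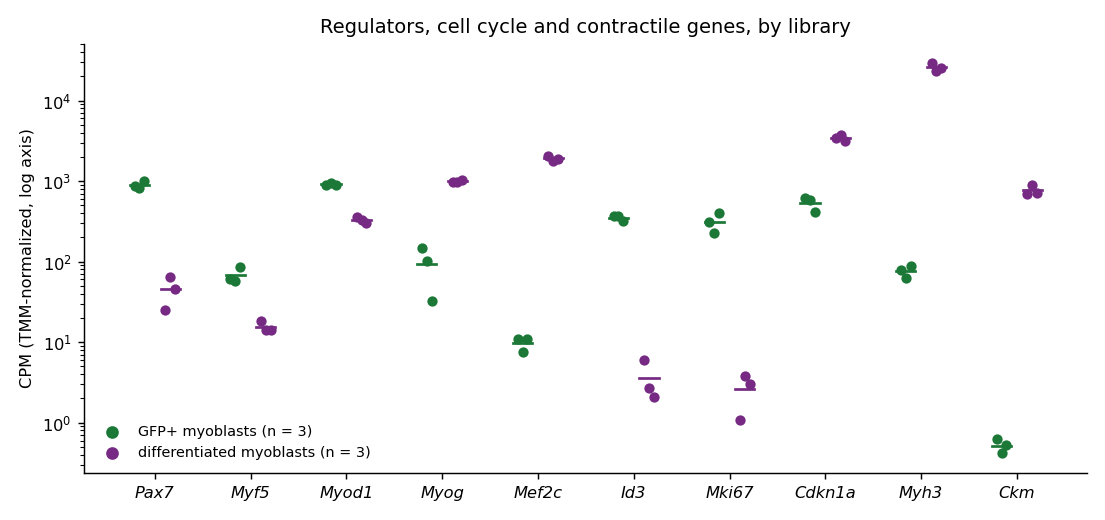
CPM of 10 genes in each library (log axis), GFP+ myoblasts in green on the left of each pair and differentiated myoblasts in purple on the right; bars are means of 3 libraries. The 2 groups do not overlap for any of the 10 genes, as for 75.2% of all tested genes, and Ckm lies below 1 CPM in all GFP+ libraries.

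Genes of the Id proteins were higher in the sorted cells. These proteins bind the E protein partners of MyoD and keep them from DNA. Id3 had 369, 365 and 322 CPM in GFP+ myoblasts and 5.97, 2.68 and 2.07 CPM in differentiated myoblasts (6.61 ± 0.41, adjusted p = 1.96e-08), and Id1 and Id2 rose by 4.49 and 4.47 on the log2 scale. Of 17 tested inhibitors of the myogenic factors 8 were higher and 3 lower (9 higher and 2 lower without GFP+ replicate 3), and 6 did not pass; of all tested genes 34.4% were higher. The largest fall that passed was in Bhlhe40, a clock-related repressor, with 2.17, 2.07 and 5.58 CPM in GFP+ myoblasts and 99.8, 107 and 113 CPM in differentiated myoblasts. Zeb1, a repressor of muscle genes, also fell (-2.35 ± 0.21).

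In the Notch pathway 10 of 19 genes were higher and 2 lower, with a median of 0.98. Over all tested genes 34.4% were higher and 34.7% lower. In either direction 63.2% of the list passed, against 69.1% of all tested genes. The receptor gene Notch3 had 220, 201 and 132 CPM in GFP+ myoblasts and 8.37, 22.8 and 14.2 CPM in differentiated myoblasts (3.61 ± 0.43, adjusted p = 6.56e-06). Lfng, which adds sugars to the Notch receptors, had 27.5, 25 and 20.1 CPM in GFP+ myoblasts and 0.538, 0.782 and 0.559 CPM in differentiated myoblasts (5.27 ± 0.67). Numb, which opposes Notch, was slightly lower (-0.48 ± 0.12). The target gene Hey1 was higher (1.94 ± 0.33) at 3.12 to 6.03 CPM in GFP+ myoblasts and 0.949 to 1.84 CPM in differentiated myoblasts.

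Of 18 genes known to be induced by FGF and ERK signalling, 11 were higher and 2 lower, beside 34.4% and 34.7% of all tested genes. Ccnd1, the cyclin that carries growth signals into the cell cycle, had 695, 808 and 927 CPM in GFP+ myoblasts and 33.2, 77 and 69.7 CPM in differentiated myoblasts (3.76 ± 0.28). Fosl1, an AP-1 subunit, and Etv4, an ETS factor, rose (5.57 and 3.71). The feedback inhibitor Spry1 went the other way, with 4.81, 7.28 and 12 CPM in GFP+ myoblasts and 79.8, 92.8 and 70.3 CPM in differentiated myoblasts (-3.35 ± 0.36). Dusp6 and Etv5, also feedback targets, did not pass, with log2 fold changes of 0.21 and -0.32. The culture media differ in FGF, and its part was not tested.

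Of 31 tested markers of muscle stem cells 15 were higher and 10 lower (14 higher and 8 lower without GFP+ replicate 3), with a median of 0.79, beside 34.4% higher and 34.7% lower over all tested genes. The chemokine receptor gene Cxcr4 had 55.2, 48.5 and 40.5 CPM in GFP+ myoblasts and 1.18, 3.02 and 1.51 CPM in differentiated myoblasts (4.67 ± 0.40). Vcam1, an adhesion molecule used to sort satellite cells, had 125, 128 and 167 CPM in GFP+ myoblasts and 3.38, 9.55 and 6.48 CPM in differentiated myoblasts (4.44 ± 0.56). Cdkn1c, which encodes the cell cycle inhibitor p57, had 4.41, 2.75 and 1.04 CPM in GFP+ myoblasts and 110, 103 and 123 CPM in differentiated myoblasts (-5.31 ± 0.68), so it was among the markers that fell.

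Genes of the cell cycle were higher in the sorted cells almost throughout. All 49 tested mitosis genes were higher in GFP+ myoblasts, with a median log2 fold change of 5.68. Of 48 replication and S-phase genes 47 were higher and 1 lower, with a median of 3.96. For comparison, 34.4% of all tested genes were higher and 34.7% lower. Mki67, the antigen of cycling cells, had 311, 229 and 398 CPM in GFP+ myoblasts and 1.08, 3.80 and 3.02 CPM in differentiated myoblasts (6.91 ± 0.51, adjusted p = 7.78e-08). Top2a, which untangles chromosomes, had 465, 361 and 542 CPM in GFP+ myoblasts and 1.66, 6.42 and 4.19 CPM in differentiated myoblasts (6.81 ± 0.51). The kinases Aurkb and Ttk, of the chromosomal passenger complex and the spindle checkpoint, rose by 6.85 and 6.96 on the log2 scale. Among the replication genes, the helicase subunit gene Mcm6 had 205, 175 and 322 CPM in GFP+ myoblasts and 1.91, 4.41 and 3.74 CPM in differentiated myoblasts (6.13 ± 0.44), and the licensing factor gene Cdc6 had 41.6, 33.3 and 69.4 CPM in GFP+ myoblasts and 0.147, 0.782 and 0.391 CPM in differentiated myoblasts (6.79 ± 0.56). Replicate 3 was the highest GFP+ library for 48 of the 49 mitosis genes and 46 of the 48 replication genes. The exception among the replication genes was E2f2 (-1.12 ± 0.36, adjusted p = 0.0143), a call that ended without GFP+ replicate 1, GFP+ replicate 2 or differentiated replicate 2.

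As a share of all transcripts the mitosis genes made up 0.423% of TPM in GFP+ myoblasts and 0.0111% in differentiated myoblasts, and the replication genes 0.441% in GFP+ myoblasts and 0.0336% in differentiated myoblasts. Of 29 genes of cell cycle exit 13 were higher and 9 lower (13 higher and 10 lower without GFP+ replicate 3), so neither share was far from the 34.4% and 34.7% of all tested genes. Cdkn1a, which encodes the inhibitor p21, had 620, 574 and 414 CPM in GFP+ myoblasts and 3406, 3714 and 3103 CPM in differentiated myoblasts (-2.67 ± 0.24, adjusted p = 3.99e-07). E2f7 and Rbl1, which repress cell cycle genes and are themselves induced in S phase, rose (6.74 and 3.25). The D cyclins were divided differently: Ccnd1 held 39.8 ± 7.07% of the family's TPM in GFP+ myoblasts and 4.17 ± 1.95% in differentiated myoblasts, and Ccnd3 41.7 ± 10.7% in GFP+ myoblasts and 87.9 ± 4.61% in differentiated myoblasts (mean ± SD, n = 3 each).

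Promoters were shown for genes of these groups because the lists differ in the motifs they hold; a match is a description of letters and not of binding. The sequences are RefSeq promoters on GRCm38.p6, 250 bases up to the transcription start, 5′ to 3′ on the gene's strand. In that of Top2a, chr11:99024190-99024439 on the minus strand, capitals mark the cell cycle homology element TTTGAA and the NF-Y box CCAAT, on either strand.
Top2a: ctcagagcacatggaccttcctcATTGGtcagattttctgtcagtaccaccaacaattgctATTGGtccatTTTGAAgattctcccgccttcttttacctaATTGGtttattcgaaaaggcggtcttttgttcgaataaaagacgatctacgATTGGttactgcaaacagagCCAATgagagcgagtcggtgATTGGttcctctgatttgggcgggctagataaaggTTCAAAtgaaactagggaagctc
In that of Mcm6, chr1:128359706-128359955 on the minus strand, capitals mark the E2F octamers and CCAAT.
Mcm6: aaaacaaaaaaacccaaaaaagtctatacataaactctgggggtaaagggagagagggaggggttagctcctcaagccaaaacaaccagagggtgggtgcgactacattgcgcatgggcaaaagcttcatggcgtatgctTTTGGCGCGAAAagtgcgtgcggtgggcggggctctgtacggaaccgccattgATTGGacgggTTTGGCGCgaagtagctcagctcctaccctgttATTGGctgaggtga
In that of Casq2, chr3:102086165-102086414 on the plus strand, capitals mark a match to the MEF2 motif. Casq2 encodes the calcium store protein calsequestrin 2 and had 6.86, 5.32 and 10.1 CPM in GFP+ myoblasts and 2205, 1909 and 2096 CPM in differentiated myoblasts (-8.13 ± 0.29).
Casq2: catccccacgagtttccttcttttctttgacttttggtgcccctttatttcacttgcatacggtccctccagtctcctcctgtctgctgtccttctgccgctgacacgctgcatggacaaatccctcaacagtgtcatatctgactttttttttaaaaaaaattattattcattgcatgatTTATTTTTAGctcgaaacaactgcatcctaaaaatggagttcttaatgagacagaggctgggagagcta

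Motifs were searched on both strands of 300 bases per promoter, and a gene counted when any of its promoters held the motif. TTTGAA was in 28 of 40 mitosis genes with a promoter sequence (70.0%), against 14.6% of 11378 tested genes and 20.2% of 27025 genes. CCAAT was in 30 of 40 mitosis genes (75.0%), 24 of 39 replication genes (61.5%) and 42.6% of tested genes. The E2F octamers TTTCCCGC, TTTCGCGC, TTTGCCGC and TTTGGCGC were in 16 of 39 replication genes (41.0%) and 4.41% of tested genes. The MEF2 motif was in 7 of 20 thick filament genes (35.0%) and 2.46% of tested genes, and the E-box CAGCTG in 8 of 20 (40.0%) and 18.7%. No thin filament gene of 16 held the MEF2 motif in this window. Matches can overlap, as the first pair of E2F octamers in Mcm6 does, 110 and 106 bases before the start.

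**Figure D2:**
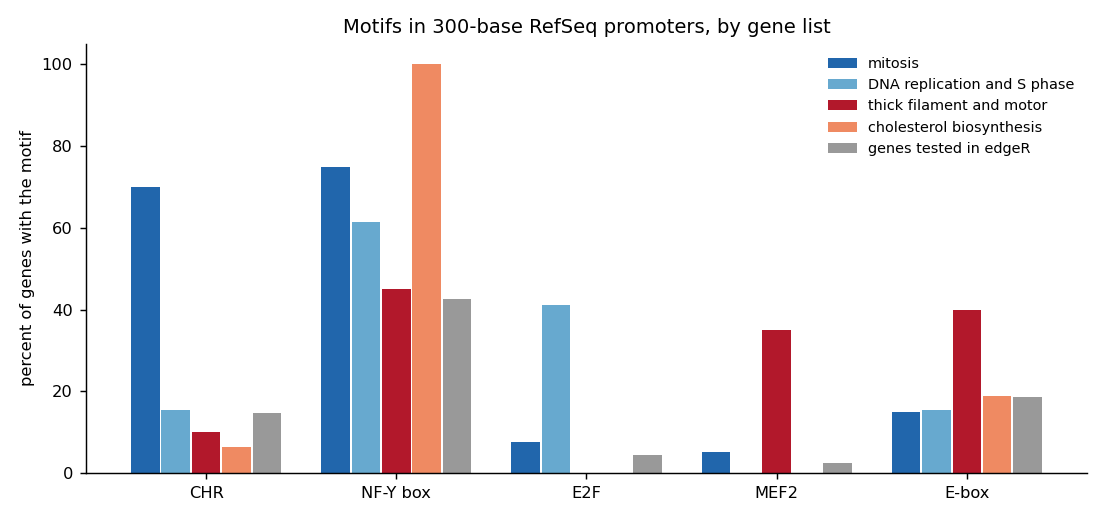
Percent of genes whose RefSeq promoter (300 bases, both strands) holds each of 5 motifs, in 4 gene lists and in all tested genes. The cell cycle homology element is most frequent in the mitosis genes (70.0%), the E2F octamers in the replication genes (41.0%) and MEF2 in the thick filament genes (35.0%).

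Genes of the contractile apparatus were far lower in the sorted cells. For comparison with the counts that follow, 34.7% of all tested genes were lower and 34.4% higher. All 21 tested thick filament genes were lower (0 higher and 20 lower without GFP+ replicate 3), with a median of -8.21, as were 17 of 20 thin filament genes (3 higher and 16 lower without GFP+ replicate 3) (-5.94) and 28 of 29 Z-disc genes (0 higher and 28 lower without GFP+ replicate 3) (-6.29). Together the 3 lists made up 0.753, 0.734 and 0.597% of TPM in the GFP+ libraries and 14.6, 13.4 and 13.3% in the differentiated libraries. Myh3, the embryonic myosin heavy chain, had 77.7, 63.4 and 89.1 CPM in GFP+ myoblasts and 28820, 23080 and 25380 CPM in differentiated myoblasts (-8.39 ± 0.39, adjusted p = 3.3e-09). Myh8, the perinatal chain, had 5.00, 3.92 and 9.84 CPM in GFP+ myoblasts and 8326, 7662 and 6387 CPM in differentiated myoblasts (-10.23 ± 0.60). Reads of the near-identical sarcomeric myosins may be split between genes, so values for single members are uncertain.

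Of the sarcomeric myosin TPM, Myh3 held 60.8 ± 6.88% in GFP+ myoblasts and 57.5 ± 4.31% in differentiated myoblasts, Myh8 4.70 ± 1.01% in GFP+ myoblasts and 16.5 ± 1.23% in differentiated myoblasts, and the adult chain gene Myh4 0.215 ± 0.219% in GFP+ myoblasts and 1.80 ± 0.733% in differentiated myoblasts. Mybpc2, a fast-fibre binding protein of myosin, had 0 counts in the 3 GFP+ libraries and 26.1, 36.2 and 32.5 CPM in differentiated myoblasts, at least 835-fold lower in GFP+ myoblasts when 3 counts over the group are taken as the floor. In the thin filament, Acta1, skeletal actin, had 77, 59 and 74.9 CPM in GFP+ myoblasts and 12280, 11900 and 11790 CPM in differentiated myoblasts (-7.41 ± 0.35). The fast troponin C gene Tnnc2 fell further (-8.75 ± 0.47). Nebl and Tpm3, members used outside skeletal muscle sarcomeres too, rose instead: Nebl had 13.4, 16.6 and 15.8 CPM in GFP+ myoblasts and 0.685, 0.893 and 0.838 CPM in differentiated myoblasts (4.24 ± 0.49), and Tpm3 had 406, 396 and 474 CPM in GFP+ myoblasts and 193, 170 and 150 CPM in differentiated myoblasts (1.31 ± 0.14, and 0.61 with length-scaled counts). At the Z-disc, Tcap, the titin cap, had 0.217, 0.264 and 0.615 CPM in GFP+ myoblasts and 255, 245 and 230 CPM in differentiated myoblasts (-9.45 ± 0.36), and Myoz2 and Xirp2 fell by 9.63 and 10.85 on the log2 scale. The 1 higher Z-disc gene, Ankrd1, had 812, 935 and 933 CPM in GFP+ myoblasts and 485, 534 and 544 CPM in differentiated myoblasts, a call that ended when any library was left out.

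Excitation-contraction coupling, the release of calcium after a muscle action potential, changed with the sarcomere: 27 of 29 genes were lower and 2 higher (1 higher and 27 lower without GFP+ replicate 3), median -4.60. Among all tested genes 34.7% were lower and 34.4% higher. Casq1, the calcium buffer of the store, had 2.42, 1.96 and 5.20 CPM in GFP+ myoblasts and 1301, 871 and 974 CPM in differentiated myoblasts (-8.38 ± 0.52). The sodium channel gene Scn4a fell by 8.17 on the log2 scale, and Fkbp1a, a ryanodine receptor partner found in most cells, rose (0.86 ± 0.09). A second higher call, of Asph (0.35 ± 0.15, adjusted p = 0.0499), ended under several alternative settings and reversed with length-scaled counts (-0.64).

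Fusion genes did not move together: of 24 tested, 8 were higher and 10 lower (8 higher and 8 lower without GFP+ replicate 3), near the 34.4% and 34.7% of all tested genes. Mymk, the muscle fusogen myomaker, had 97, 70.2 and 52.1 CPM in GFP+ myoblasts and 1667, 1756 and 1558 CPM in differentiated myoblasts (-4.50 ± 0.31), so it was already present in the sorted cells. Tmem182, a membrane protein of muscle, fell by 6.77 on the log2 scale. Kirrel, an adhesion protein, went the other way, with 228, 225 and 262 CPM in GFP+ myoblasts and 6.17, 18.2 and 13.1 CPM in differentiated myoblasts (4.26 ± 0.41).

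At the neuromuscular synapse 15 of 17 genes were lower and 1 higher. Colq, the collagen tail of acetylcholinesterase, had 1.80, 1.28 and 0.520 CPM in GFP+ myoblasts and 100, 92.8 and 93.8 CPM in differentiated myoblasts (-6.25 ± 0.36), and the enzyme gene Ache fell with it (-5.53 ± 0.40). Agrn, the organiser of receptor clusters, was higher (1.39 ± 0.19), and Rapsn did not pass (-0.40). Of 20 genes of the dystrophin complex 14 were lower and 3 higher, beside 34.7% and 34.4% of all tested genes. Dmd, which encodes dystrophin, had 1.65, 2.30 and 1.51 CPM in GFP+ myoblasts and 344, 222 and 269 CPM in differentiated myoblasts (-7.25 ± 0.48). Sgce, a widely expressed sarcoglycan, rose (2.19 ± 0.22). Lama2, the laminin chain that the complex binds, did not pass (-0.26).

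**Figure D3:**
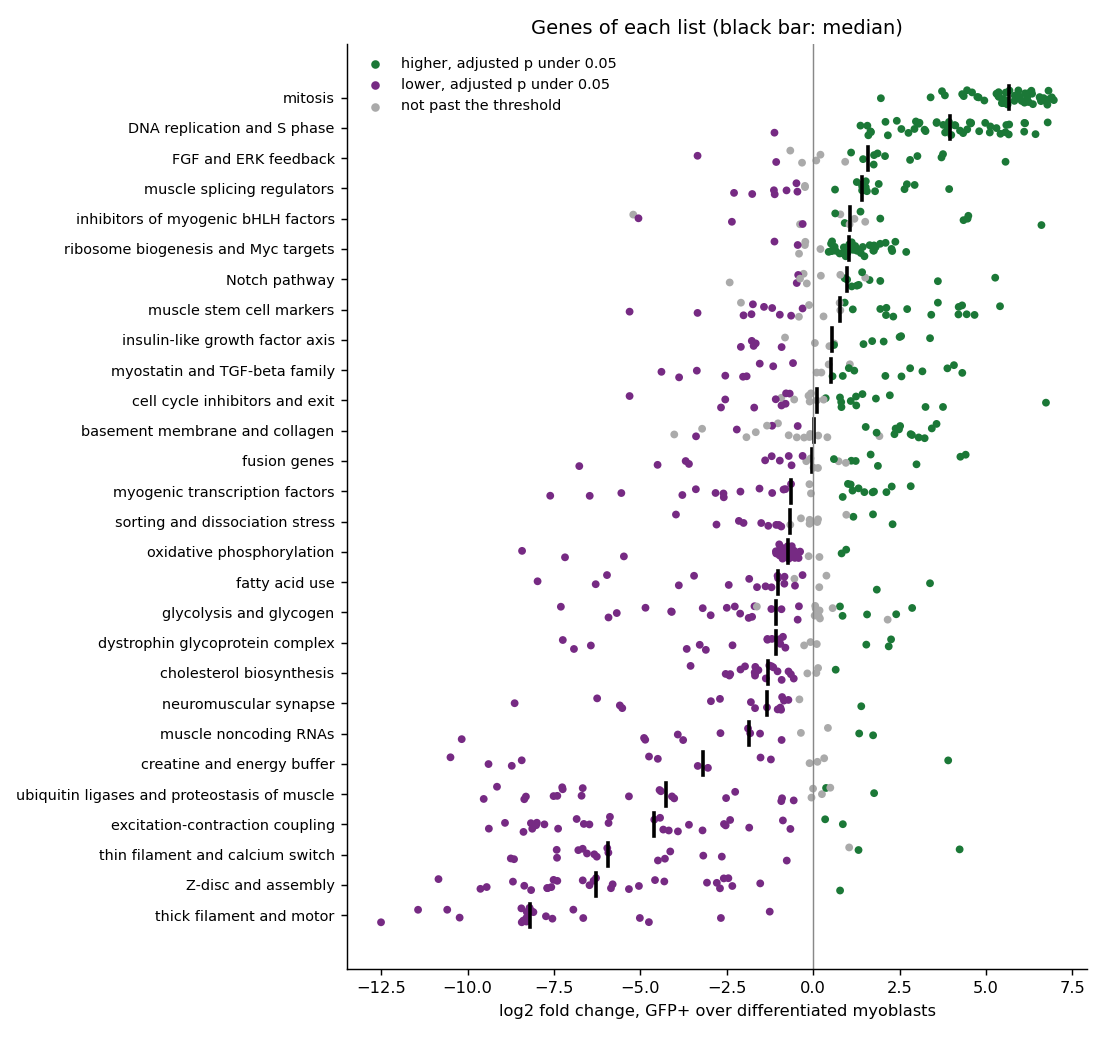
Log2 fold change (GFP+ over differentiated myoblasts) of each tested gene in 28 lists, ordered by median (black bar); green and purple genes passed an adjusted p of 0.05, higher and lower, and grey genes did not. Mitosis genes lie highest (median 5.68) and thick filament genes lowest (median -8.21).

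Energy metabolism was lower in the sorted cells for most lists. In glycolysis and glycogen use 18 of 32 genes were lower and 5 higher, beside 34.7% and 34.4% of all tested genes. The list's median was -1.06. Ckm, the muscle creatine kinase, had 0.621, 0.415 and 0.520 CPM in GFP+ myoblasts and 682, 901 and 712 CPM in differentiated myoblasts (-10.50 ± 0.70, adjusted p = 3.72e-08). Of 14 genes of the creatine and energy buffer 10 were lower and 1 higher (2 higher and 10 lower without GFP+ replicate 3), and myoglobin, Mb, fell by 8.44 on the log2 scale. Of 33 respiratory chain genes 29 were lower and 2 higher (2 higher and 30 lower without GFP+ replicate 3), but their median was only -0.74, and GFP+ replicate 3 was the highest GFP+ library for 28 of them. Cox6a1 and Cox8a, the forms of 2 cytochrome oxidase subunits used in most tissues, were the 2 that rose (0.95 and 0.82).

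Within several gene families, the muscle member held a smaller share in the sorted cells. Pgam2 held 4.21 ± 2.17% of phosphoglycerate mutase TPM in GFP+ myoblasts and 92.3 ± 1.86% in differentiated myoblasts, while Pgam1 itself rose (2.40 ± 0.15). Pfkm held 28.4 ± 4.77% of phosphofructokinase TPM in GFP+ myoblasts and 94.8 ± 0.476% in differentiated myoblasts. The heart and muscle subunit Cox6a2 held 0.387 ± 0.173% of its family in GFP+ myoblasts and 71.9 ± 2.15% in differentiated myoblasts. Actb held 47.4 ± 0.759% of actin TPM in GFP+ myoblasts and 1.22 ± 0.327% in differentiated myoblasts, and Acta1 1.06 ± 0.196% in GFP+ myoblasts and 61.2 ± 0.901% in differentiated myoblasts, with the caution on near-identical genes. Caveolin 3, Cav3, held 12.6 ± 8.98% of caveolin TPM in GFP+ myoblasts and 98.9 ± 0.517% in differentiated myoblasts. Not every family changed its make-up, since Casq1 held 29.3 ± 2.64% of calsequestrin TPM in GFP+ myoblasts and 30.6 ± 3.31% in differentiated myoblasts although its level fell.

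**Figure D4:**
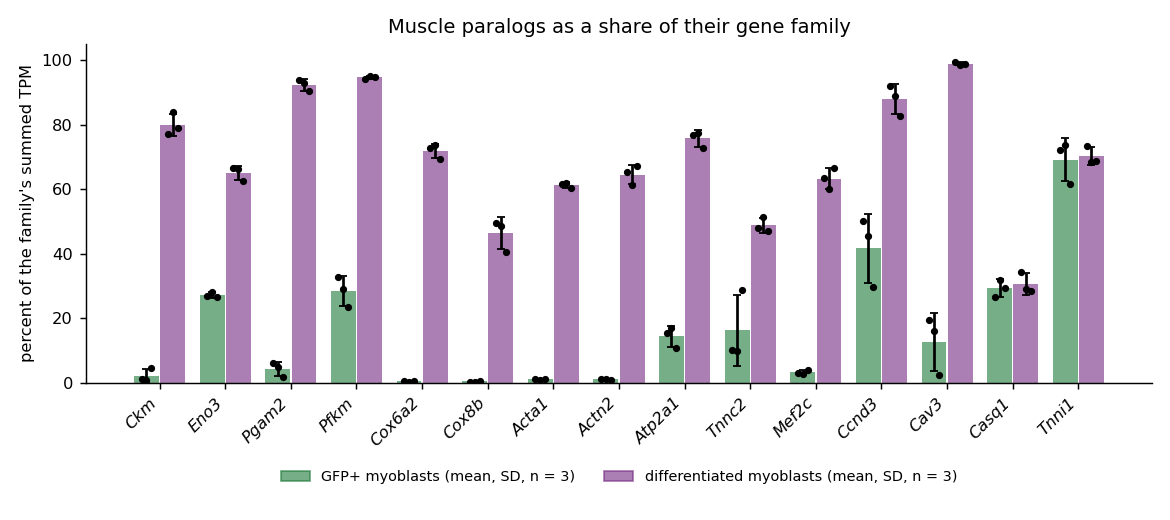
Share of each gene in its family's summed TPM (bars: mean; lines: SD; points: 3 libraries), GFP+ myoblasts left in green and differentiated myoblasts right in purple. Pgam2, Pfkm and Cox6a2 have larger shares in differentiated myoblasts, and Casq1 and Tnni1 have about equal shares in both.

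Lipid genes also differed. In fatty acid use 16 of 21 genes were lower and 2 higher, beside 34.7% and 34.4% of all tested genes. The fatty acid carriers Cd36 and Fabp3 fell by 7.98 and 6.29 on the log2 scale, but Cpt1a, the entry enzyme of mitochondrial fatty acid oxidation, had 222, 215 and 156 CPM in GFP+ myoblasts and 18.6, 18.4 and 19.9 CPM in differentiated myoblasts (3.38 ± 0.30). In cholesterol synthesis 20 of 24 genes were lower and 1 higher (0 higher and 19 lower without GFP+ replicate 3), with a median of -1.32. Dhcr7, the last step of that pathway, had 17.6, 13.7 and 17.6 CPM in GFP+ myoblasts and 208, 193 and 172 CPM in differentiated myoblasts (-3.55 ± 0.24). Srebf2, a transcriptional regulator of the pathway, did not pass (0.14). The CCAAT motif was in all 16 cholesterol genes with a promoter sequence, against 42.6% of tested genes. The culture sera differ between the groups, and their part was not tested.

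Matrix genes did not move together: 12 of 30 were higher and 4 lower, 14 did not pass, and the median was 0.03. The share that was higher is near the 34.4% of all tested genes, and the share that was lower is well under their 34.7%. GFP+ replicate 3, the library that stood apart, was the lowest GFP+ library for 20 of the 30 and the highest for 5. Among the 24 fusion genes it was the lowest for 17 and the highest for 7, so such a count is not particular to matrix genes. Col3a1, a fibrillar collagen, had 881, 749 and 577 CPM in GFP+ myoblasts and 28.1, 88.7 and 69.2 CPM in differentiated myoblasts (3.57 ± 0.68), and the basement membrane collagen gene Col4a1 had 1120, 878 and 894 CPM in GFP+ myoblasts and 62.8, 91.7 and 114 CPM in differentiated myoblasts. Lamb2, a laminin chain of the synapse, was lower (-2.21 ± 0.20). In the insulin-like growth factor axis 7 of 16 genes were higher and 5 lower (6 higher and 5 lower without GFP+ replicate 3), beside 34.4% and 34.7% of all tested genes. Igfbp5, a binding protein induced in differentiation, had 344, 232 and 658 CPM in GFP+ myoblasts and 1713, 2086 and 1472 CPM in differentiated myoblasts (-2.09 ± 0.35). Igfbp4 varied widely in GFP+ myoblasts, at 69.4, 16.7 and 2.98 CPM, against 2.99, 3.24 and 2.35 CPM in differentiated myoblasts, and its call ended without GFP+ replicate 1 (1.80, adjusted p = 0.0555). In the TGF-beta family 11 of 24 genes were higher and 9 lower (12 higher and 9 lower without GFP+ replicate 3), against the same shares over all genes. Tgfb3 had 21, 21 and 18.9 CPM in GFP+ myoblasts and 464, 384 and 433 CPM in differentiated myoblasts (-4.39 ± 0.18), and Fst, which binds myostatin and activins, fell by 3.88 on the log2 scale.

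Ribosome biogenesis was higher in the sorted cells, with 33 of 39 genes higher and 2 lower (33 higher and 3 lower without GFP+ replicate 3) at a median of 1.05. As in the cell cycle lists, GFP+ replicate 3 was the highest GFP+ library, here for 34 of the 39. Npm1, a nucleolar chaperone, had 1056, 1097 and 1355 CPM in GFP+ myoblasts and 205, 226 and 244 CPM in differentiated myoblasts (2.38 ± 0.16), and the list made up 0.857% of TPM in GFP+ myoblasts and 0.321% in differentiated myoblasts. Of 23 splicing regulators 14 were higher and 7 lower, beside 34.4% and 34.7% of all tested genes. Ptbp1, a repressor of muscle and neuronal exons, had 305, 307 and 530 CPM in GFP+ myoblasts and 44.4, 50.3 and 54.5 CPM in differentiated myoblasts (2.94 ± 0.28), and the general factor gene Hnrnpa1 rose by 2.71 on the log2 scale. Rbfox1 and Rbm38, which promote muscle splicing, were lower (-1.76 and -2.29). Of 26 ubiquitin ligases and chaperones of muscle 20 were lower and 2 higher, beside 34.7% and 34.4% of all tested genes. Fbxo40, a muscle ligase subunit, fell by 9.15 on the log2 scale.

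Of 14 muscle noncoding RNAs 10 were lower and 2 higher, beside 34.7% and 34.4% of all tested genes. Meg3, an imprinted RNA, had 16.4, 21.6 and 8.37 CPM in GFP+ myoblasts and 283, 71.4 and 1000 CPM in differentiated myoblasts (-4.86 ± 0.90), and its neighbours in the same imprinted cluster, Rian and Mirg, were also lowest in differentiated replicate 2 and highest in differentiated replicate 3. Gas5 and Snhg1, host genes of small nucleolar RNAs, rose (1.33 and 1.73).

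Outside the lists, the largest rises among coding genes were led by Selp, the adhesion receptor P-selectin, with 49.1, 22.4 and 98.1 CPM in GFP+ myoblasts and 0.0979, 0.0558 and 0 CPM in differentiated myoblasts. That is 997-fold, with a 95% counting interval of 341 to 4837, since the differentiated libraries held 3 counts in all. Cxcl12, the ligand of Cxcr4, had 228, 294 and 659 CPM in GFP+ myoblasts and 0.979, 1.79 and 2.46 CPM in differentiated myoblasts (7.83 ± 0.54). Hhip, which binds hedgehog ligands, and Pbk, a mitotic kinase, rose by 7.64 and 7.36 on the log2 scale. The largest falls included Hephl1, a copper oxidase of the hephaestin family, with 0, 0 and 0.0946 CPM in GFP+ myoblasts and 126, 130 and 132 CPM in differentiated myoblasts. With 2 counts in the GFP+ libraries, it was 5156-fold lower there, with a counting interval of 1427 to 42590. Capn3, a muscle protease that binds titin, fell by 10.63 on the log2 scale, and Ptgds had 0 counts in GFP+ myoblasts and 12.3, 12.7 and 12.1 CPM in differentiated myoblasts, at least 329-fold lower in GFP+ myoblasts.

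Transcript use was tested on each transcript's share of its gene's TPM, with limma on the arcsine square root of the share. Of 20403 genes with at least 2 transcripts, 9743 had at least 1 TPM in all 6 libraries, and 32369 of their transcripts were tested. At an adjusted p of 0.05 and a difference of at least 20 percentage points 719 transcripts passed (2.22%), 368 with a larger and 351 with a smaller share in GFP+ myoblasts, in 493 genes (5.06%). The leading transcript switched in 129 genes (1.32%), of which 38 had a higher gene level, 67 a lower one and 24 did not pass the level test. Of 79 genes known for regulated splicing in muscle, 75 were tested and 35 held a transcript that passed. Shares come from short reads assigned by a model, and with the replicate number, which goes with the shared name prefix, as a block no transcript passed (the smallest adjusted p was 0.0986, limma, with 5086 at an unadjusted p under 0.05).

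Exons of genes with a transcript that passed are shown next, from GENCODE transcripts on GRCm38, each named by the transcript that holds it. Of the genes shown, Mef2a, Fxr1, Tpm1 and Itgb1 are not among the 129 whose leading transcript switched. In the first set capitals mark an exon that the named transcript holds and another transcript of the gene skips, with 15 bases of each neighbouring exon in lower case. For Fxr1-201, first and next give the order of its marked exons. These are not adjacent, and other exon sequence lies between them.
Flnc-201: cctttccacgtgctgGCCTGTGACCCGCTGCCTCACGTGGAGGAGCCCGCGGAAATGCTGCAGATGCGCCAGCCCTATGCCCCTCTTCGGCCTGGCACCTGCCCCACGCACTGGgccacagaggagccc
Anxa7-202: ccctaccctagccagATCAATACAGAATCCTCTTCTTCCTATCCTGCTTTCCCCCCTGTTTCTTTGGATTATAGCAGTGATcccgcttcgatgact
Snx14-207: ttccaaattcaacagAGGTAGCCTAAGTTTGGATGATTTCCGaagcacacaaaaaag
Tmem184b-204: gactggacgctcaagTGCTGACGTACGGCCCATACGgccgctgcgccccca
Mef2a-208: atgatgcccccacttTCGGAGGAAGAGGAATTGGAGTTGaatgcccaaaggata
Fxr1-201, first exon: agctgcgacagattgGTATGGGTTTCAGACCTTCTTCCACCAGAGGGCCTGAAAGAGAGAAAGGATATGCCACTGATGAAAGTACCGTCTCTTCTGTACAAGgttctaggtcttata
Fxr1-201, next exon: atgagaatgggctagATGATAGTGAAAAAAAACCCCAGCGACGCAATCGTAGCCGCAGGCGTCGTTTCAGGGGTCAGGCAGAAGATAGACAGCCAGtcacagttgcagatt

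Flnc, filamin C, an actin crosslinker of the Z-disc, lies on chromosome 6 and was among the largest switches. Flnc-201, which holds the 99-base coding exon, had 82.6, 83.6 and 86.8% of the gene's TPM in GFP+ myoblasts and 4.54, 5.90 and 5.86% in differentiated myoblasts (adjusted p = 0.00133, limma). Flnc-202, which skips it, had 16, 14.7 and 11.6% in GFP+ myoblasts and 93.8, 92.9 and 92.6% in differentiated myoblasts, while the gene as a whole fell in GFP+ myoblasts (-2.79). Anxa7, a membrane-binding annexin, went the other way: Anxa7-202, with its 66-base exon, had 16.5, 16.1 and 6.70% in GFP+ myoblasts and 81.1, 74.4 and 76.7% in differentiated myoblasts. The short exons of Snx14 (27 bases) and Tmem184b (21 bases) were likewise used in differentiated myoblasts: Snx14-207 had 8.41, 17.1 and 4.38% in GFP+ myoblasts and 81.6, 74.6 and 76.1% in differentiated myoblasts. Tmem184b-204 had 1.62, 1.20 and 0.988% in GFP+ myoblasts and 64.3, 55 and 70.5% in differentiated myoblasts. The transcripts that led in GFP+ myoblasts, Snx14-204 and Tmem184b-202, lost their call when some single libraries were left out. Fxr1-201, the form of this RNA-binding protein with both extra exons, had 21.8, 17.8 and 12.1% in GFP+ myoblasts and 55.9, 54.3 and 53.9% in differentiated myoblasts. Mef2a-208, with the exon of 24 bases, had 56.7, 52.5 and 46.2% in GFP+ myoblasts and 69.98, 75.1 and 72.6% in differentiated myoblasts, a call that ended when any library was left out.

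In the second set 2 exons replace each other, and capitals mark the bases in which they differ. Such pairs keep the gene on and change a stretch of its coding sequence.
Pkm-201: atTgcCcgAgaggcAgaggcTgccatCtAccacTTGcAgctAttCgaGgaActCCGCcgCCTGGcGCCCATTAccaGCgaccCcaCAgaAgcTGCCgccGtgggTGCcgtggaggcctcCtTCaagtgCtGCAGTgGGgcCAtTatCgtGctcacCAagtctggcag
Pkm-202: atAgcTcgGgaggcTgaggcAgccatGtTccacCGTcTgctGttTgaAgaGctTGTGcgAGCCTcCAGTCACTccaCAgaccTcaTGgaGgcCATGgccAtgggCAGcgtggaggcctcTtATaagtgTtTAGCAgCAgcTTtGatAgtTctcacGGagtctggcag
Slc25a3-201: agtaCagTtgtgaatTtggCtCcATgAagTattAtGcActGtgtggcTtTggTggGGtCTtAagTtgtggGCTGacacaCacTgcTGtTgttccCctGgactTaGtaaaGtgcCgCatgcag
Slc25a3-206: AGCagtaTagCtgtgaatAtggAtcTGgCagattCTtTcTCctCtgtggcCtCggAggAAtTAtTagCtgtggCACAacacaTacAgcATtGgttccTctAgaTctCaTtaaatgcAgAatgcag
Tpm3-201: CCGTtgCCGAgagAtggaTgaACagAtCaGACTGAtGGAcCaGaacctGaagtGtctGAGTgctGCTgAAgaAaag
Tpm3-205: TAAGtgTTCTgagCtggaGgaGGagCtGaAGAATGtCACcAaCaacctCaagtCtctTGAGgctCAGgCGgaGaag
Tpm1-213: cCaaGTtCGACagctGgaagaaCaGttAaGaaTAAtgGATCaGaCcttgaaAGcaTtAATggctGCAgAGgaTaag
Tpm1-205: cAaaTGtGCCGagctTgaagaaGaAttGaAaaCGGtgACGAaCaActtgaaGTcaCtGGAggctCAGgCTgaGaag
Itgb1-201: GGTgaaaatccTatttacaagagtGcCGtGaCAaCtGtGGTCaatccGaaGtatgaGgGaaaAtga
Itgb1-204: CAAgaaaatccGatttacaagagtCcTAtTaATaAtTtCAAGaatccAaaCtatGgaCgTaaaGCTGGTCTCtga

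Pkm, pyruvate kinase, on chromosome 9, is the textbook case of such an exon pair, whose 167 bases are 61.7% identical. Pkm-201, with the exon of the M2 form, had 66.6, 69.1 and 75% in GFP+ myoblasts and 37.8, 38.3 and 37.6% in differentiated myoblasts (adjusted p = 0.0102, limma). Pkm-202, with that of the M1 form, had 16.5, 18.5 and 8.14% in GFP+ myoblasts and 54.5, 50.5 and 49.5% in differentiated myoblasts, and the level of the gene did not pass (0.16, adjusted p = 0.31). The call on Pkm-202 ended when GFP+ replicate 1 or any differentiated library was left out. Slc25a3, the mitochondrial phosphate carrier, on chromosome 10, gave a clearer pattern. Slc25a3-201 had 42.1, 47.6 and 49.96% in GFP+ myoblasts and 6.53, 7.25 and 6.74% in differentiated myoblasts, and Slc25a3-206 had 14.9, 14 and 9.88% in GFP+ myoblasts and 81.9, 76.8 and 84.1% in differentiated myoblasts. Their exons were 65.6% identical over 128 aligned columns.

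Transcripts of Tpm3 and Tpm1 that differ in a pair of 76-base exons had different shares in the groups. These transcripts also differ in other coding bases, including a pair of 83-base exons. The Tpm1 transcripts each hold 159 coding bases that the other lacks. Tpm3-201 holds 291 such bases and Tpm3-205 holds 399. The changes in share are therefore not assigned to the 76-base exons alone. Tpm3-201 had 56.1, 53.1 and 63.3% in GFP+ myoblasts and 2.44, 3.71 and 4.03% in differentiated myoblasts, and Tpm3-205 had 0.712, 0.871 and 0.931% in GFP+ myoblasts and 53, 45.3 and 40.4% in differentiated myoblasts (adjusted p = 0.00286, limma). Tpm1-213 had 19.1, 18.6 and 31.9% in GFP+ myoblasts and 0, 0 and 0% in differentiated myoblasts, and Tpm1-205 had 38.9, 34.2 and 17.8% in GFP+ myoblasts and 82.7, 82.1 and 82% in differentiated myoblasts; both Tpm1 calls ended when some single libraries were left out. Tpm1-205 had the larger mean share of the pair in both groups, 30.3% in GFP+ myoblasts and 82.3% in differentiated myoblasts. In GFP+ replicate 3 alone Tpm1-213 had the larger share. Tpm1 was not among the 129 genes counted as switched. The 76-base exons of Tpm1-205 and Tpm3-205, the transcripts with smaller shares in GFP+ myoblasts, were 75.0% identical. Those of Tpm1-213 and Tpm3-201, the transcripts with larger shares there, were 65.8% identical. Within Tpm1 and within Tpm3 the 76-base exons were 56.6% and 51.3% identical. The 83-base exons were 89.2% identical between Tpm1-205 and Tpm3-205 and 63.9% between Tpm1-213 and Tpm3-201. Within Tpm1 and within Tpm3 the 83-base exons were 43.4% and 45.8% identical. Itgb1-204, which holds the exon of the muscle form of Itgb1, the integrin beta 1 chain, had the larger share in differentiated myoblasts. Its share was 0.361, 0.342 and 0.699% in GFP+ myoblasts and 24.9, 25.7 and 21.9% in differentiated myoblasts, though Itgb1-201 led in both groups. Itgb1-204 has 338 coding bases and Itgb1-201 has 2397, of which 2134 are absent from Itgb1-204. This change in share is therefore not assigned to the exon pair alone.

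Atp2a2, the calcium pump of the reticulum, on chromosome 5, switched its last coding exon. The ends of the 2 coding sequences are shown with the stop codon in capitals.
Atp2a2-201: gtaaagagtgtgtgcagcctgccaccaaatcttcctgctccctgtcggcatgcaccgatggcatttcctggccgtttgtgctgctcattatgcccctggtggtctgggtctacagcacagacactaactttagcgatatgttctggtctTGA
Atp2a2-202: caatactggagTAA
Atp2a2-201, the longer form used in most tissues, had 61.6, 61.7 and 76% in GFP+ myoblasts and 4.46, 5.32 and 5.10% in differentiated myoblasts (adjusted p = 0.00397, limma). Atp2a2-202, the form of slow and cardiac muscle, had 29.7, 29.1 and 17.6% in GFP+ myoblasts and 94, 93.1 and 92.7% in differentiated myoblasts. Naca-202, the muscle form of this nascent chain factor with a very large extra exon, had 1.03, 0.873 and 0.219% in GFP+ myoblasts and 34.8, 27 and 23.9% in differentiated myoblasts. Mfn2, a mitochondrial fusion protein, switched without a change in its coding sequence: Mfn2-204 had 75.6, 70.7 and 71.2% in GFP+ myoblasts and under 0.01% in differentiated myoblasts. Mfn2-201 had 5.83, 8.54 and 6.67% in GFP+ myoblasts and 84.1, 84.9 and 85.8% in differentiated myoblasts. Of the called transcripts, 128 were not protein coding (17.8%, against 35.3% of those tested).

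**Figure D5:**
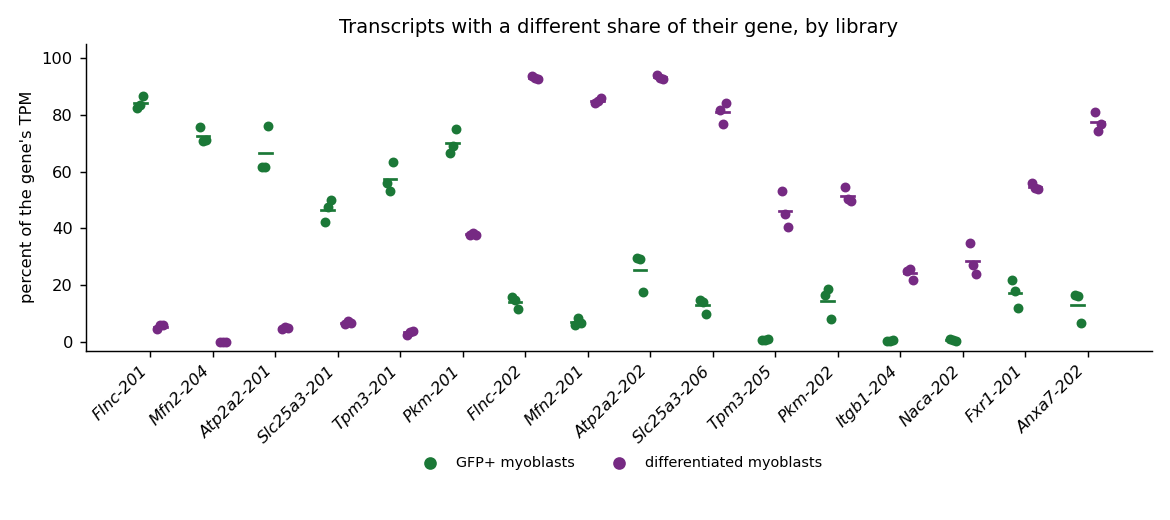
Share of the gene's TPM of 16 transcripts in each library, GFP+ myoblasts in green on the left of each pair and differentiated myoblasts in purple on the right; bars are means of 3 libraries. The first 6 transcripts have the larger share in GFP+ myoblasts (Flnc-201 at 82.6 to 86.8%) and the other 10 in differentiated myoblasts.

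Bulk myoblasts, which were not sorted, lay between the groups for most of the genes that differed at least 2-fold. For the 3268 genes at least 2-fold higher in GFP+ myoblasts, the bulk mean fell between both groups for 2940 (90.0%), and for the 3497 at least 2-fold lower for 3215 (91.9%). Choosing genes by the gap between both groups favours such a place. No share over all tested genes or for another group is given beside these, so they are a description only. On a log scale with differentiated myoblasts at 0 and GFP+ myoblasts at 1, their median place was 0.731 for the higher and 0.542 for the lower genes. Myh3 averaged 8039 CPM in bulk myoblasts and Mki67 180 CPM, so the growing unsorted culture held more Myh3 and less Mki67 RNA than the sorted cells. Bulk and GFP+ myoblasts shared the medium and differed in sort, kit and passage.

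Markers of other cell types were counted as a check of the samples. For comparison with the counts in this paragraph, 34.4% of all tested genes were higher and 34.7% lower. Of 5 tested Schwann cell markers 1 was higher and 4 lower (1 higher and 1 lower without GFP+ replicate 3), and the falls were led by Erbb3 (-5.60), a neuregulin receptor that muscle also uses; Sox10 was too low to test. Of 10 fibroblast markers Col3a1 was the 1 that rose and Gsn the 1 that fell, a call that ended without GFP+ replicate 3 or differentiated replicate 2, and Lum and Dpt were too low to test. Of 11 pericyte and smooth muscle markers 4 were higher and 5 lower, led by Rgs5 (4.97) and by the potassium channel subunit gene Abcc9 (-7.24). Of 10 macrophage and leukocyte markers 3 could be tested and all passed: Cd14, an endotoxin co-receptor, and Cd68, a lysosomal protein, were higher (2.53 ± 0.80, adjusted p = 0.0119, and 1.65 ± 0.30, adjusted p = 0.000239), and the integrin gene Itgam, with 0.0310, 0.113 and 0.0473 CPM in GFP+ myoblasts and 8.42, 9.94 and 9.72 CPM in differentiated myoblasts, was lower; Ptprc and Adgre1, which define the type, were too low to test. Of 5 tested endothelial markers 1 was higher and 2 lower: the adhesion gene Pecam1 was higher (1.65 ± 0.57), with groups that overlapped and a call that ended without GFP+ replicate 1 (adjusted p = 0.151, edgeR), differentiated replicate 2 (adjusted p = 0.0674) or differentiated replicate 3 (adjusted p = 0.0806). Cdh5, a cadherin, and Vwf, a clotting factor carrier, were lower (-4.45 and -2.56). Of 3 tested tenocyte markers the transcription factor gene Scx was lower (-1.86 ± 0.20) and the other two did not pass (1 higher and 1 lower without GFP+ replicate 3). The adipocyte genes Adipoq and Plin1 were too low to test, and neither tested member of that list passed. Summed, the fibroblast list was 0.0396 to 0.0610% of TPM in GFP+ myoblasts and 0.0136 to 0.0168% in differentiated myoblasts. The Schwann cell list, which holds Erbb3, was 0.000574 to 0.00114% in GFP+ myoblasts and 0.0117 to 0.0128% in differentiated myoblasts. The leukocyte list was 0.000430 to 0.000489% in GFP+ myoblasts and 0.000426 to 0.000470% in differentiated myoblasts, and the endothelial list 0.000751 to 0.00103% in GFP+ myoblasts and 0.000819 to 0.00108% in differentiated myoblasts. The tenocyte list was 0.00308 to 0.00415% in GFP+ myoblasts and 0.00948 to 0.0107% in differentiated myoblasts, and the pericyte list, which holds the muscle gene Des, 0.0792 to 0.165% in GFP+ myoblasts and 0.362 to 0.397% in differentiated myoblasts. The part of these cells in the results was not tested. Among 19 genes induced by dissociation and sorting, 3 were higher and 9 lower (4 higher and 9 lower without GFP+ replicate 3): Atf3 had 0.683, 0.754 and 0.568 CPM in GFP+ myoblasts and 9.15, 10.9 and 11.8 CPM in differentiated myoblasts (-3.97 ± 0.27), and Dnajb1 rose (1.73 ± 0.15).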

How the data were processed

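Poly(A) RNA was sequenced in single-end reads. Per the submitters' processing notes fastp 0.20.0 and kallisto 0.46.1 were used, and the deposited files hold an estimated count and a TPM (its length-scaled abundance) for each transcript, on GRCm39; no genome of that build was used here. Of 121798 transcripts 120739 were matched by ID to GENCODE M21 for names, types and exons.

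Estimated counts were summed per gene, rounded and tested with edgeR 4.0.16 (quasi-likelihood test, TMM, filterByExpr) in R 4.3.3, over 15 libraries of 5 groups; the high-passage library, which has no replicate, was left out. Shares of the gene's TPM were tested with limma 3.58.1 (robust) on the 6 libraries, for genes at 1 TPM or more in each and transcripts at a mean share of 5% or more in 1 group. DESeq2 1.42.0 was an alternative. Intervals and floors (3 counts) cover counting error only, since the reads carry no molecular identifiers. Scripts were tested on simulated data. The members and gene lists were chosen with earlier results of these data known. Named genes are those with the largest changes in each list, up to 2 against its majority, members that did not pass where they are few, the 10 largest rises and falls at 10 CPM or more, and family members; Cdh15, Itga7, Flnc and Pkm were added as a marker or as the gene of a switch. Some genes of the lists are counted but not reported here by name.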

Additional observations from a re-analysis of the deposited data

How the results depend on the processing

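The count of 10732 genes ranged from 9953 to 10875 over the other settings: only the 6 libraries, another scaling, DESeq2, no filter, length-scaled counts, the replicate block and each library left out. Over the named genes a call ended in 25 pairs of gene and setting and was gained in 2, while 1412 pairs kept direction and call. The direction of Asph reversed with length-scaled counts (-0.64), and the cause was not tested. Transcript shares were less stable: over the named transcripts a call ended in 50 pairs of transcript and setting and held in 238. With the replicate number as a block 0 transcripts and 0 switches passed, against 719 and 129 without it. Deviations of gene-level log CPM from the group mean correlated at 0.102, 0.033 and -0.007 between same-numbered samples of both groups. Between samples of different number these deviations correlated at -0.104 to 0.049. Pairing in the transcript shares was not tested this way. Library names of same-numbered samples share a prefix across the groups, which may mark a shared parental line. The labels do not say so, and the numbers were not taken to pair the samples. With edgeR's diffSpliceDGE 418 transcripts and 69 switches passed, and with each library left out 432 to 550 transcripts and 60 to 95 switches. With all 15 libraries and the block, an alternative chosen after seeing the data, 850 transcripts and 150 switches passed. The 3 libraries a group limit the precision of shares.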
